A study of Mus musculus with 18 samples.

Results

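The stanniocalcins Stc1 and Stc2, the only members of their family in the mouse, were followed through the retina and the 661W cell libraries. They were taken by name from the count tables, in which they are 2 of 78239 genes. Both were chosen by the difference in their counts between nsHif1a and eGFP libraries, which was already known, so their levels and differences are given here as a description without a test. Stanniocalcins are secreted glycoproteins, first described in fish as hormones that lower calcium. STC1 and STC2 bind and block the pappalysins PAPP-A and PAPP-A2, proteases that cut IGF binding proteins and so release IGF. STC2 is also known to bind STIM1 and to limit the entry of calcium through store-operated channels, and its gene is a textbook target of both the hypoxia-inducible factors and the PERK-ATF4 branch of the unfolded protein response. STC1 has been linked to mitochondrial uncoupling, to lower oxidative stress and to protection of photoreceptors.

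The study asked what a constitutively active HIF1A does in rods of the normoxic retina. In the AAV::nsHif1a group, retinas carried a mouse HIF1A with a Myc tag that is stable and active in normal oxygen. In the AAV::eGFP group they carried enhanced green fluorescent protein instead. Each group held retinas of 5 mice. Both vectors used a mutated AAV2 capsid and the rod-directed mouse rhodopsin promoter mOP, and both were injected under the retina between postnatal days 29 and 32. Retinas were taken 3 weeks post injection (wpi). The labels give the mice as C57BL/6J, whereas the study's methods name wild-type 129S6 mice, and neither was checked here. Because injection reaches only a region of the retina and the whole retina was sequenced, untransduced tissue is part of each library. The second experiment used 661W cells, a photoreceptor-like line that came from a mouse retinoblastoma, transfected with nsHif1a or eGFP plasmids under the CMV promoter. RNA was taken 20 h after transfection from 4 libraries per group, and the labels do not say whether these were separate cultures, so that their spread may be technical.

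The libraries held 12898220 to 16167522 counts in the retina and 13424326 to 17809585 in the cells. Levels are given as CPM, the usual unit of read counts relative to the depth of a library, with depth scaled by TMM within each experiment. A floor of 3 counts stood at 0.168 to 0.229 CPM, and like all counting intervals here it leaves out any error but that of counting. Hif1a, which sums the endogenous gene and the transgene, was at 157 ± 6.79 CPM (SD, n = 4) in eGFP cells and at 1561 ± 384 in nsHif1a cells. In the retina it was at 668 ± 26.1 CPM (n = 5) with eGFP and at 687 ± 31.6 with nsHif1a, so the total Hif1a level does not mark the nsHif1a retinas (log2FC 0.05 ± 0.04 SE, adjusted p-value = 0.50, limma). Rod markers summed to 32662 to 46414 CPM in retinas but to 1.50 to 4.15 CPM in cells, where 1 of the 7 rod markers and 1 of the 5 cone markers passed the filter on low counts. The photoreceptor label of 661W was thus hardly visible in these markers.

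Stc1 (ENSMUSG00000014813.10) lies on the plus strand of chromosome 14 at chr14:69266575-69279253 (GRCm39, gencode M39), with 4197 bases of exon and a coding sequence of 741 bases. Its start overlaps the lncRNA Gm41192 of the opposite strand. Stc2 (ENSMUSG00000020303.3) lies on the minus strand of chromosome 11 at chr11:31307307-31320124, with 4305 bases of exon and a coding sequence of 888 bases. It overlaps the lncRNA Gm35012 on the opposite strand. Reads were counted by strand, and neither lncRNA reached more than 9 counts in a library. Of the 50-base words in their transcripts, 8 of 4305 for Stc1 and 0 of 6147 for Stc2 also occur in other genes.

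The promoter of Stc2 is shown because the libraries compared differ in a HIF subunit, and HIF binds the short core motifs ACGTG and GCGTG. RefSeq's promoter table (GRCm38.p6) held 1 of the 2 genes, Stc2. The window is chr11:31370062-31370311, the 250 bases before the start of Stc2, read on the minus strand as the gene is, with matches to GCGTG on either strand in capitals.
Stc2 promoter: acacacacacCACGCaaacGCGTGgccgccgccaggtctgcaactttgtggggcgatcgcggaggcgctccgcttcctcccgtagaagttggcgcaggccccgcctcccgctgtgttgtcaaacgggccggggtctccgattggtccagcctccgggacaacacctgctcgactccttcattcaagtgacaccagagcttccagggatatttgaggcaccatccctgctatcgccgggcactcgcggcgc
GCGTG occurs on the opposite strand 240 bases before the start and on the strand of the gene 231 bases before it. ACGTG does not occur in this window. Of 32851 promoter windows of the same length, 28.2% hold GCGTG on either strand, 16.6% hold ACGTG, and 16.7% hold at least 2 matches to either motif, with the palindrome of ACGTG counted on both strands. A match is a run of letters and was not tested as a binding site.

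**Figure D1:**
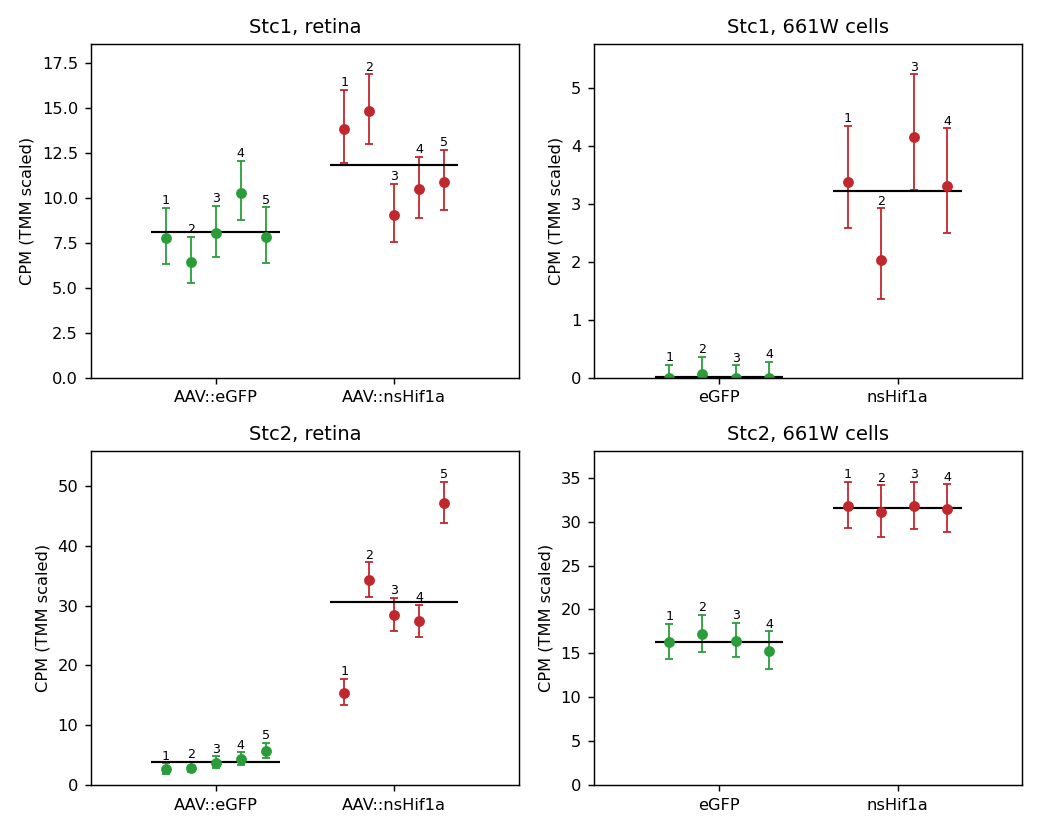
Level of Stc1 (top) and Stc2 (bottom) in each library of the retina (left) and of 661W cells (right), in CPM on linear axes that differ between panels. Points are libraries with their replicate number, bars are 95% counting intervals and lines are group means. The groups overlap for Stc1 in the retina, where eGFP reaches 10.3 CPM and nsHif1a starts at 9.08, and lie apart in the other 3 panels.

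In the retina, Stc2 was low with eGFP and several times higher with nsHif1a. In counts, Stc2 had 34, 45, 60, 65 and 75 reads in eGFP retinas 1 to 5, and 206, 543, 400, 401 and 736 reads in nsHif1a retinas 1 to 5. This corresponded to 2.60, 2.91, 3.71, 4.29 and 5.65 CPM with eGFP and to 15.4, 34.2, 28.4, 27.3 and 47.2 CPM with nsHif1a. The lowest nsHif1a retina thus lay well above the highest eGFP retina. Among all genes tested in the retina, 5.94% had groups that did not overlap and 3.25% had every nsHif1a library above every eGFP library, and since the gene was chosen for this response nothing is read from it. The group means were 3.83 ± 1.21 CPM and 30.5 ± 11.6 CPM (SD, n = 5), and the log2FC was 2.92 ± 0.36 (SE, limma, 95% limits 2.13 and 3.71), or 7.56-fold, which placed Stc2 at rank 30 of 18859 genes by log2FC. As in any bulk sample, fewer cells of a type and less RNA per cell cannot be told apart in these values.

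Among the nsHif1a retinas, the highest level of Stc2 was 3.06 times the lowest, with a coefficient of variation of 37.9%. Retina 1 was lowest and retina 5 highest, with the other 3 close together. The share of all counts taken by γ-crystallins, which are lens proteins, was also uneven, with 1.06%, 0.130%, 1.12%, 1.82% and 0.0956% in nsHif1a retinas 1 to 5 and 0.0634% to 0.280% in eGFP retinas. Retinas 2 and 5, with the least γ-crystallin, had the most Stc2. With the γ-crystallin level as a covariate the log2FC of Stc2 was 3.28. The part of lens RNA in the spread was not tested further.

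Stc1 differed less. Its counts were 102, 100, 130, 156 and 104 in eGFP retinas 1 to 5 and 185, 236, 128, 154 and 170 in nsHif1a retinas. The levels were 7.79, 6.46, 8.04, 10.3 and 7.83 CPM with eGFP and 13.9, 14.9, 9.08, 10.5 and 10.9 CPM with nsHif1a. Only nsHif1a retina 3 fell below the highest eGFP retina, number 4, so that the groups overlapped by this pair alone. The means were 8.09 ± 1.39 and 11.8 ± 2.43 CPM (SD, n = 5), and the log2FC was 0.55 ± 0.16 (SE, 95% limits 0.20 and 0.90), or 1.47-fold, at rank 749 of 18859. It was 0.38 without nsHif1a retina 2, 0.48 without nsHif1a retina 1 and 0.48 without eGFP retina 2. As no test is given for Stc1, neither these values nor that of the full fit stand for a call. The highest log2FC of Stc1 without 1 retina was 0.70, without nsHif1a retina 3, and the γ-crystallin covariate also gave 0.70. Stc1 and Stc2 did not rank the nsHif1a retinas alike. Retina 1 was lowest for Stc2 and second highest for Stc1, whereas retina 3 was lowest for Stc1.

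The retinal groups also differed in Xist, the transcript of the inactive X chromosome. All 5 nsHif1a retinas and eGFP retinas 1 and 2 had 19492 or more Xist counts, whereas eGFP retinas 3, 4 and 5 had 2, 1 and 3. Retinas above 100 counts are called retinas with Xist. Within eGFP, Stc2 was at 2.60 and 2.91 CPM in the retinas with Xist and between 3.71 and 5.65 CPM in the others, and Stc1 was at 6.46 and 7.79 CPM against 7.83 to 10.3 CPM. Both genes were thus lower in the eGFP retinas with Xist, without overlap, over only 2 and 3 retinas. Limited to retinas with Xist, the log2FC was 0.74 for Stc1 and 3.39 for Stc2.

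In 661W cells the roles were reversed. Stc2 was the gene present at baseline, and Stc1 lay under the floor of 3 counts. Stc1 had 0, 1, 0 and 0 reads in eGFP libraries 1 to 4 and 60, 29, 71 and 56 reads in nsHif1a libraries 1 to 4. Its levels with nsHif1a were 3.38, 2.04, 4.15 and 3.32 CPM, a mean of 3.22 ± 0.876 (SD, n = 4), while every eGFP library lay under the level of 3 counts. The 216 reads with nsHif1a against 1 read with eGFP gave a ratio of 204, with a 95% counting interval of 36.3 to 8106. The fitted log2FC of Stc1 in cells was 6.22 ± 0.41 (SE), which was the largest of the 15962 genes tested in cells and depends on the small value that is added to counts of 0. The ratio is therefore large but poorly bounded from above. The level reached with nsHif1a, 2.04 to 4.15 CPM, remained under that of control retina, which was scaled apart.

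Stc2 in cells was the most even of the 4 patterns. Its counts were 271, 265, 279 and 203 with eGFP and 566, 443, 543 and 531 with nsHif1a. Scaled by depth, they gave 16.3, 17.2, 16.4 and 15.2 CPM and 31.8, 31.1, 31.8 and 31.5 CPM. The libraries of each group were almost level and the groups lay far apart. Of all genes tested in cells, 13.6% had groups that did not overlap and 7.51% had all nsHif1a libraries on top. The means were 16.3 ± 0.797 and 31.5 ± 0.324 CPM (SD, n = 4), a log2FC of 0.95 ± 0.06 (SE, 95% limits 0.82 and 1.08) or 1.94-fold, at rank 230 of 15962. The coefficient of variation with nsHif1a was 1.03%, under the 4.38% that counting alone gives on average, so the SD is an underestimate of the error. The 4 libraries were equal in Stc2 although Hif1a ranged from 1222 to 1954 CPM among them.

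Ordered by group mean, Stc1 ran from eGFP cells at 0.0162 CPM over nsHif1a cells at 3.22 and eGFP retina at 8.09 to nsHif1a retina at 11.8 CPM. The first 3 did not overlap, and the retinal groups did. The order for Stc2 was eGFP retina at 3.83 CPM, eGFP cells at 16.3, nsHif1a retina at 30.5 and nsHif1a cells at 31.5 CPM. Here only eGFP retina stood below all others. The lowest nsHif1a retina, at 15.4 CPM, lay within the range of eGFP cells, and the range of nsHif1a retinas enclosed that of nsHif1a cells. The experiments were scaled apart, so these orders across retina and cells were not tested.

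Per kilobase of exon the 2 genes can be set side by side. In eGFP retinas Stc2 was at 0.325, 0.439, 0.450, 0.406 and 0.703 of the level of Stc1 per kilobase, a mean of 0.465 ± 0.142 (SD, n = 5). In nsHif1a retinas 1 to 5 the ratio was 1.09, 2.24, 3.05, 2.54 and 4.22, a mean of 2.63 ± 1.15. Per kilobase of exon, Stc1 was ahead in every eGFP retina and Stc2 in every nsHif1a retina. Per kilobase of coding sequence nsHif1a retina 1 turned, with a ratio of 0.929, while the other nsHif1a retinas stayed between 1.92 and 3.61 and the eGFP retinas between 0.278 and 0.602. In nsHif1a cells the ratio was 9.20, 14.9, 7.46 and 9.24. The sum of both genes was 2.82 ± 0.506 CPM per kilobase in eGFP retinas and 9.91 ± 2.62 in nsHif1a retinas, and 3.78 ± 0.191 in eGFP cells and 8.10 ± 0.276 in nsHif1a cells. Of the sum with nsHif1a, Stc2 gave 7.09 CPM per kilobase in the retina and 7.33 in cells, so that the similar totals of retina and cells were made mostly of Stc2.

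**Figure D2:**
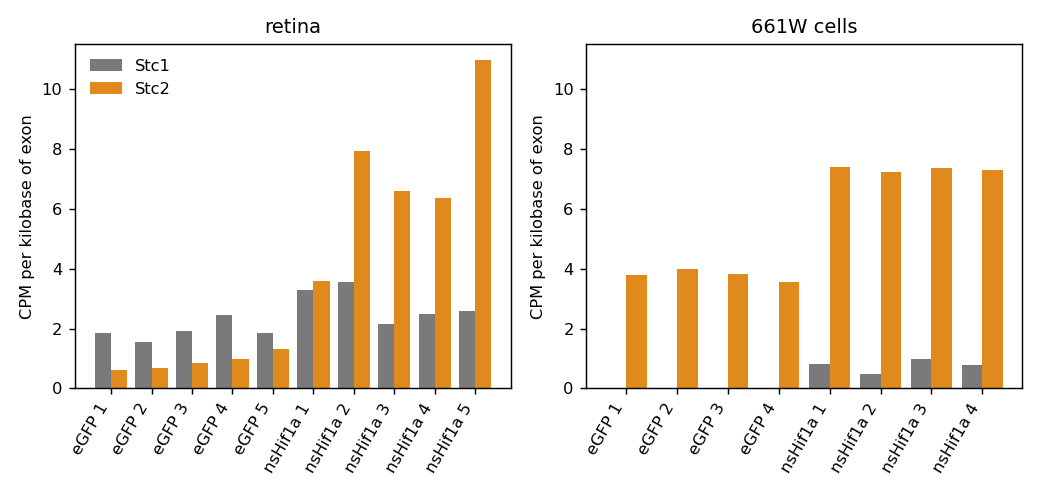
Level of Stc1 (grey) and Stc2 (orange) per kilobase of exon in each library, in CPM per kilobase from 0. Stc1 is the taller bar in all 5 eGFP retinas and Stc2 in all 5 nsHif1a retinas and all 8 cell libraries.

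Genes of the pathways in which stanniocalcins act were taken from lists written with earlier results of these data known. A gene counted as called if limma, fitted over all genes, gave it an adjusted p-value under 0.05 with a log2FC beyond 0.5 in size. By this rule 1.99% of genes were called in the retina (1.08% higher, 0.912% lower) and 1.27% in cells (1.21% higher, 0.0626% lower). No listed gene was called lower in either experiment.

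The IGF axis holds the pappalysins that stanniocalcins block, their substrates and the IGF ligands and receptors. Of its 17 genes, 16 were tested in the retina and none was called by limma, edgeR or DESeq2, with 5 at an unadjusted p-value under 0.05 in limma and a median log2FC of -0.04 against -0.00 for all genes. Pappa, the gene of PAPP-A, was at 4.93 ± 0.493 CPM in eGFP and 6.56 ± 1.50 in nsHif1a retinas (log2FC 0.35 ± 0.15, limma adjusted p-value = 0.192). Pappa2 was at 27.8 ± 2.01 and 25.6 ± 3.22 CPM (log2FC -0.12). The pappalysin genes were thus expressed in the retina, and no difference passed the test. Their substrates Igfbp4 (32.2 and 32.4 CPM, log2FC 0.01) and Igfbp5 (78.3 and 94.7 CPM, log2FC 0.21, limma adjusted p-value = 0.282) did not pass either. Igf1r, the receptor of IGF1, rose from 204 ± 8.78 to 259 ± 27.7 CPM (log2FC 0.33 ± 0.06, limma adjusted p-value = 0.00519) and Igfbp2 from 29.3 ± 1.87 to 37.2 ± 3.26 CPM (log2FC 0.35 ± 0.07, adjusted p-value = 0.0122). Both were under the limit on fold and their groups did not overlap. Igfbp7, the highest gene of the list in eGFP retinas, was at 205 ± 24.7 and 182 ± 73.9 CPM.

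In cells, 12 genes of the IGF axis were tested. Limma and edgeR called none, DESeq2 called Igf1, and 3 had an unadjusted p-value under 0.05 in limma, with a median log2FC of 0.11 against -0.00. Pappa, with 0.319 and 0.453 CPM, did not pass the filter on low counts, and Pappa2 was at 2.26 ± 0.300 and 2.78 ± 0.361 CPM (log2FC 0.29). Both pappalysins were thus scarce in these cells. Igf1 had 6, 7, 4 and 7 reads in eGFP libraries 1 to 4 and 69, 57, 11 and 14 reads in nsHif1a libraries 1 to 4 (log2FC 2.16 ± 0.70, limma adjusted p-value = 0.131). The nsHif1a libraries of Igf1 thus fell into a high pair, 1 and 2, and a low pair, 3 and 4. The same split was seen in Igfbp4 with 2.42, 2.74, 0.819 and 0.652 CPM. Igfbp2 was at 40.8, 39.8, 14.7 and 13.5 CPM in nsHif1a libraries 1 to 4 and at 20.96, 21.4, 14.1 and 12.9 CPM in eGFP libraries. Igfbp3 was at 49.3, 49.4, 12.5 and 12.2 CPM with nsHif1a and at 20.1, 16.98, 12.5 and 11.6 CPM with eGFP. In both genes the eGFP libraries split as well, and nsHif1a lay far above eGFP in replicates 1 and 2 and close to it in replicates 3 and 4. With a term for replicates 1 and 2 against 3 and 4, Igf1, Igfbp2 and Igfbp3 were called higher (log2FC 2.36, 0.62 and 0.98), which for Igfbp2 and Igfbp3 averages over these unlike pairs. Hif1a also differed between the pairs. It was at 1222 and 1241.5 CPM in nsHif1a libraries 1 and 2 and at 1954 and 1825 CPM in 3 and 4. What sets the pairs apart was not tested. Stc2 was equal across the pairs, and Stc1 was lowest in library 2 and highest in library 3. Igf2r, the highest gene of the list, was at 393 ± 60.5 CPM in eGFP cells.

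**Figure D3:**
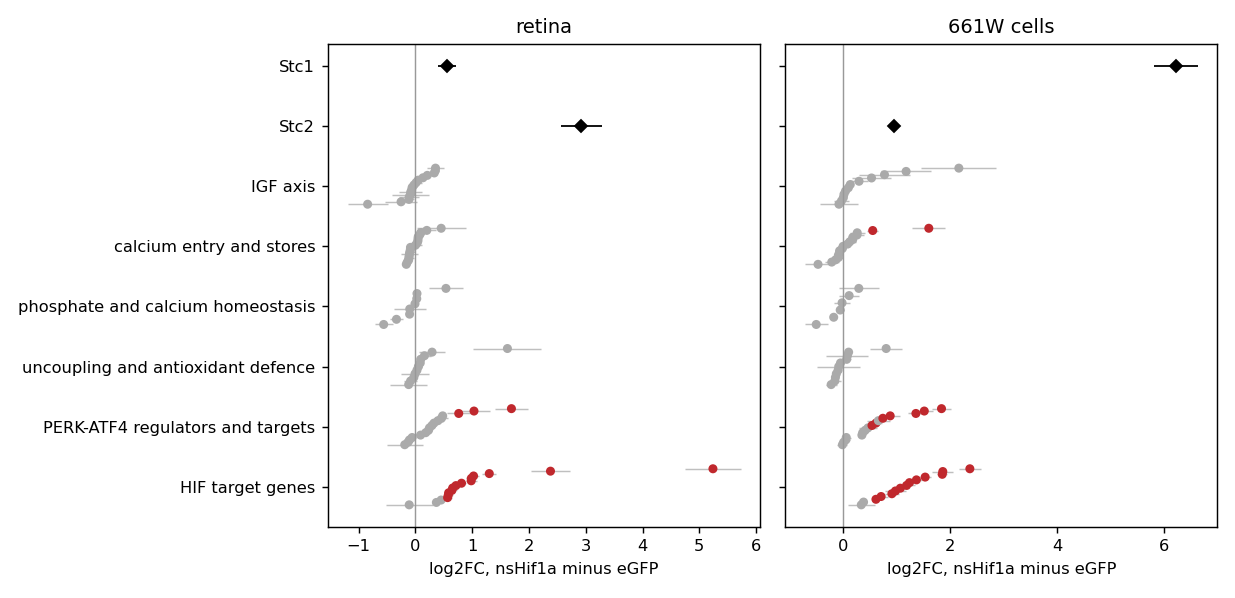
log2FC of nsHif1a over eGFP, with SE, for the tested genes of 6 lists and for Stc1 and Stc2, in the retina (left) and in 661W cells (right). Red points are genes called higher, grey points are genes not called and black diamonds are Stc1 and Stc2. Red points lie in the HIF target (13 of 16 in the retina, 12 of 14 in cells) and PERK-ATF4 lists (3 and 7 of 16), and 2 in the calcium list in cells.

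Of the genes of calcium entry and stores, 0 of 18 were called in the retina (limma, edgeR and DESeq2), with 3 at an unadjusted p-value under 0.05 in limma and a median log2FC of -0.04. Stim1, the calcium sensor of the endoplasmic reticulum that STC2 binds, was at 68.9 ± 4.09 and 65.0 ± 1.76 CPM in the retina (log2FC -0.09, limma adjusted p-value = 0.286) and at 68.5 ± 2.97 and 62.0 ± 1.56 CPM in cells (log2FC -0.14, adjusted p-value = 0.147). The partner of STC2 thus did not pass the test in either experiment. In cells 2 of 17 were called higher, with a median log2FC of -0.00. Trpc1, a cation channel subunit, rose from 7.40 ± 0.873 to 10.8 ± 0.231 CPM (log2FC 0.55 ± 0.10, limma adjusted p-value = 0.0276), but its adjusted p-value was 0.0753 with the replicate number as a block, and the call was lost without eGFP library 1 or 2. Atp2a3, a calcium pump of the endoplasmic reticulum, rose from 0.990 ± 0.172 to 3.20 ± 1.14 CPM (log2FC 1.60 ± 0.31, adjusted p-value = 0.0334), a call that was kept in 2 of 8 fits without 1 library, those without nsHif1a library 3 or 4. The highest genes of the list were the calcium pumps Atp2b1 at 404 ± 26.6 CPM in eGFP retinas and Atp2a2 at 431 ± 9.11 CPM in eGFP cells, and neither was called.

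Of the phosphate and calcium homeostasis genes 8 of 17 passed the filter on low counts in the retina and 6 in cells, and none was called by limma, edgeR or DESeq2, with 3 and 2 at an unadjusted p-value under 0.05 in limma. The median log2FC was -0.06 and -0.04. The highest were Xpr1, a phosphate exporter, at 170 ± 8.39 CPM in eGFP retinas and Slc20a1, a phosphate importer, at 119 ± 25.3 CPM in eGFP cells. Of the genes of uncoupling and antioxidant defence, limma called 0 of 11 in each experiment, with 1 and 3 at an unadjusted p-value under 0.05 and median log2FC of 0.05 and -0.08. Ucp2, the uncoupling protein to which STC1 has been linked, was at 22.8 ± 3.14 and 30.98 ± 12.96 CPM in the retina and at 71.2 ± 0.924 and 74.4 ± 11.0 CPM in cells and is named because of that link, after its values were seen. Hmox1, heme oxygenase, was called higher in the retina by edgeR (log2FC 1.96) and DESeq2 (1.97) but not by limma (1.62 ± 0.60, adjusted p-value = 0.138). It was at 5.20 to 12.2 CPM in eGFP retinas and at 36.4, 8.19, 38.1, 52.4 and 23.3 CPM in nsHif1a retinas 1 to 5. Retina 2 alone was within the eGFP range, and without it limma called Hmox1 higher (log2FC 2.32, adjusted p-value = 0.00226). With the γ-crystallin covariate limma did not call it. In each group retina 4 had both the most Hmox1 and the largest γ-crystallin share, 0.280% with eGFP and 1.82% with nsHif1a. The nsHif1a retinas 2 and 5 were the lowest of their group in both. The part of lens RNA in the level of Hmox1 was not tested further. In cells Hmox1 was at 158 to 337 CPM with eGFP and 337 to 500 CPM with nsHif1a (limma adjusted p-value = 0.171), and with the replicate number as a block it was called higher (log2FC 0.80, adjusted p-value = 0.0184). The highest genes of this list were Sod2 at 154 ± 5.71 CPM in eGFP retinas and Txnrd1 at 447 ± 23.4 CPM in eGFP cells, and neither was called.

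The second known input to Stc2 is the PERK-ATF4 pathway. The list taken for it also holds Ern1, Xbp1, Atf6 and Hspa5 of other branches of the unfolded protein response. Its counts and medians are therefore not of PERK-ATF4 alone. In the retina 3 of the 16 listed genes were called higher, Trib3, Chac1 and Atf3, and 9 had an adjusted p-value under 0.05 in limma. The median log2FC was 0.27 against -0.00 for all genes. Atf3, a stress-induced transcription factor, rose from 4.77 ± 1.06 to 15.8 ± 6.11 CPM (log2FC 1.69 ± 0.29, limma adjusted p-value = 0.00573). Trib3, a pseudokinase, rose from 3.79 ± 0.936 to 6.49 ± 1.90 CPM (log2FC 0.76 ± 0.21, adjusted p-value = 0.0496) and Chac1, which degrades glutathione, from 2.50 ± 0.809 to 5.34 ± 1.97 CPM (log2FC 1.03 ± 0.27, adjusted p-value = 0.047). The calls of Trib3 and Chac1 were each kept in 3 of 9 other settings, and in 2 and 4 of the 10 fits without 1 retina. Atf3 kept its call in 8 of 9 settings and lost it only in retinas with Xist (adjusted p-value = 0.117). Atf4 itself rose by less than the limit on fold (175 ± 11.9 to 207 ± 6.78 CPM, log2FC 0.25 ± 0.05, limma adjusted p-value = 0.00867). Vldlr, a lipoprotein receptor and the highest gene of the list in eGFP retinas, rose from 328 ± 14.4 to 401 ± 11.4 CPM (log2FC 0.29 ± 0.04, adjusted p-value = 0.00122).

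In cells 7 of the 16 genes of this list were called higher, with a median log2FC of 0.50 against -0.00 for all genes. These were Atf4, Ddit3, Ppp1r15a, Trib3, Sesn2, Atf3 and Vldlr. Trib3 rose from 24.8 ± 5.74 to 62.3 ± 6.71 CPM (log2FC 1.36 ± 0.15, limma adjusted p-value = 0.00239), Atf3 from 12.7 ± 2.33 to 45.0 ± 9.17 CPM (1.84 ± 0.18, 0.00105) and Vldlr from 10.8 ± 1.82 to 31.3 ± 6.63 CPM (1.52 ± 0.17, 0.00239). Atf4 rose from 248 ± 19.2 to 359 ± 34.3 CPM (log2FC 0.54 ± 0.08, adjusted p-value = 0.0106), a call that the replicate block took away (adjusted p-value = 0.0521) and that was also lost without replicate 1 or 2 of either group. Ddit3 and Ppp1r15a lost their calls without eGFP library 1 or 2 (adjusted p-values up to 0.0577 and 0.0814). Sesn2 had a log2FC of 0.74, Ppp1r15a of 0.88 and Ddit3 of 0.61, and the reads of Ddit3 are uncertain because a second annotated gene of that name overlaps it on the same strand. Hspa5, an endoplasmic reticulum chaperone and the highest gene of the list in eGFP cells, rose from 1231 ± 45.3 to 1631 ± 77.0 CPM (log2FC 0.41 ± 0.05, adjusted p-value = 0.00301), under the limit on fold.

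Of the HIF target genes, 13 of 16 were called higher in the retina and 12 of 14 tested in cells, with a median log2FC of 0.68 and 1.13. In the retina these were Adm, a vasoactive peptide (log2FC 5.24 ± 0.49), Egln3 and Egln1, prolyl hydroxylases that mark HIF for degradation (2.38 ± 0.34 and 1.30 ± 0.12), Ak4, an adenylate kinase (1.02), Bnip3, a mitophagy receptor (0.98), Pfkfb3, a regulator of glycolysis (0.98), the growth factor Vegfa (0.81), Ankrd37 (0.71), Ddit4, an inhibitor of mTORC1 (0.66), Ero1a, an oxidase of protein disulfide formation (0.64), the glucose transporters Slc2a3 and Slc2a1 (0.58 and 0.58) and Pdk1, which inhibits pyruvate dehydrogenase (0.57). The log2FC of Stc2 in the retina, 2.92, lay between those of Adm and Egln3. That of Stc1, 0.55, lay under all 13. Slc2a1, Egln3 and Ankrd37 were not called in retinas with Xist alone (adjusted p-values of 0.0745, 0.0852 and 0.0752). Ndrg1, the highest gene of the list in eGFP retinas, rose from 256 ± 22.1 to 329.8 ± 25.03 CPM (log2FC 0.37 ± 0.06, limma adjusted p-value = 0.00634), under the limit on fold.

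In cells the called HIF targets were Ak4 (log2FC 2.37 ± 0.21), Slc2a3 (1.86), Bnip3 (1.85), Pdk1 (1.53), Pfkfb3 (1.37), Ndrg1 (1.24), Ddit4 (1.18), Ero1a (1.07), Ankrd37 (0.98), Vegfa (0.91), P4ha1, a collagen prolyl hydroxylase (0.71), and Slc2a1 (0.61), which was the highest of the list in eGFP cells at 120 ± 4.12 CPM. Ankrd37 lost its call with the replicate block (adjusted p-value = 0.0609) and without any 1 of the 4 eGFP libraries, and P4ha1 lost it without replicate 1 or 2 of either group (adjusted p-values up to 0.0558). In this experiment Stc1, at 6.22, lay above all 12 and Stc2, at 0.95, among the lower ones, between Ankrd37 and Vegfa. The stanniocalcins thus changed places between the experiments relative to these targets, and so did some of the targets. Egln3 and Egln1 had a log2FC of 2.38 and 1.30 in the retina but were not called in cells (0.34 and 0.38). Ndrg1 had 0.37 in the retina and 1.24 in cells, and Adm was not tested in cells. The place of Stc1 in cells rests on 1 eGFP read.

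The nsHif1a retinas were also set in the order of their mean HIF target response, the mean over 16 genes of log2 CPM minus the eGFP mean. It was 0.75, 1.16, 1.03, 0.96 and 1.33 in retinas 1 to 5. From low to high this order was 1, 4, 3, 2 and 5, and Stc2 had the same order. Vegfa and Egln3 had the order 1, 3, 4, 2 and 5, and Adm the order 1, 2, 3, 4 and 5, with the same ends but another middle. Stc1 had the order 3, 4, 5, 1 and 2 and did not follow it. In cells the mean over 14 targets was 1.08, 1.01, 1.36 and 1.25 in libraries 1 to 4. From low to high Stc1 had the order 2, 4, 1 and 3 and the targets 2, 1, 4 and 3, with the same ends but another middle. Stc2 was level. All these values come from the same libraries, share their depth and scaling, and are a description.

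**Figure D4:**
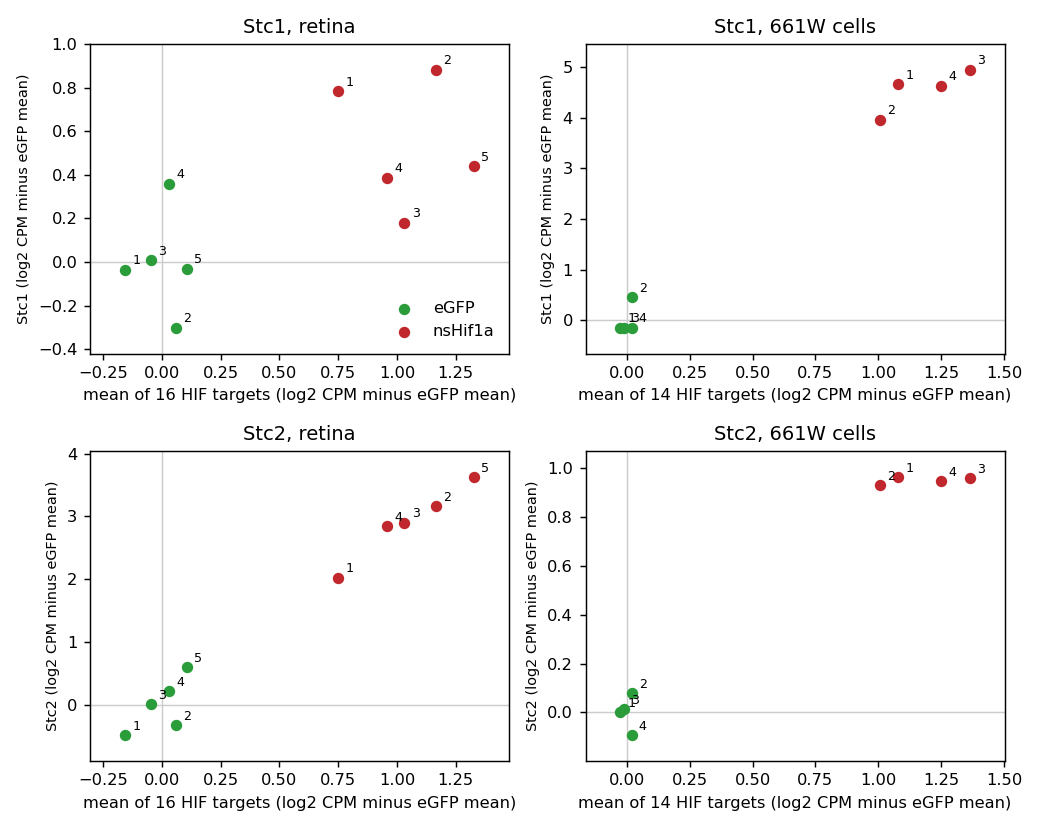
log2 CPM of Stc1 and Stc2 minus the eGFP mean, plotted against the mean of the HIF targets on the same scale, in the retina (left, 16 targets) and in 661W cells (right, 14 targets). Green points are eGFP and red points nsHif1a libraries with their replicate number. In the retina Stc2 and the targets order the nsHif1a libraries alike (1, 4, 3, 2, 5), and in cells Stc2 is level across them.

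The genes closest to each stanniocalcin were found by the root mean square difference of log2 CPM minus the eGFP mean over the libraries of an experiment. Over 10 retinas the closest to Stc2 was Gm15283, a lncRNA on the strand opposite to Hif1a that overlaps that gene (chr12:73889811-73996735, Hif1a at chr12:73948149-73996321), with a difference of 0.196. It had 31, 33, 50, 35 and 48 reads in eGFP and 153, 375, 258, 309 and 543 reads in nsHif1a retinas 1 to 5, and ordered them as Stc2 did at both ends. Its log2FC was 2.91, beside 0.05 for Hif1a. Next came Smtnl2, a smoothelin-like protein (difference 0.370, log2FC 3.35), Ppp1r3g, a subunit that targets a phosphatase to glycogen (0.517, 3.74), Egln3 (0.568, 2.38) and the lncRNA Gm10475 (0.573, 3.63).

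Over the 8 cell libraries the profile of Stc1 was closest to those of Nos2, the inducible nitric oxide synthase (difference 0.543, log2FC 5.79), Atp7b, a copper pump (0.562, 5.33), Tph1, a tryptophan hydroxylase (0.721, 4.87), the receptor Gpr35 (0.790, 4.11) and again Gm15283 (0.807, 4.18). Like Stc1 these genes had a mean under 0.3 CPM with eGFP, the highest being Gpr35 at 0.242 CPM. Gm15283 was at 0.187 CPM in eGFP and 3.46 CPM in nsHif1a cells, where Hif1a on the opposite strand was at 157 and 1561 CPM. Whether reads of Hif1a were counted in Gm15283 was not tested. Closest to Stc2 in cells were Dipk2a (difference 0.0932, log2FC 0.85), Phospho1, a phosphatase of mineralisation (0.109, 0.83), the transcriptional repressor Bhlhe40 (0.135, 0.93), the glycolytic enzyme Eno2 (0.147, 0.76) and the phosphatase Pdxp (0.147, 0.85). No gene was among the 5 closest to Stc2 in both experiments. The nearest genes of Stc1 in the retina were not computed because its groups overlap.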

How the data were processed

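RNA from retinas and 661W cells was prepared by the authors with a stranded kit, sequenced in pairs, aligned with Rsubread to GRCm39 and counted per gene by strand with featureCounts (gencode M36 basic). Raw counts, unfiltered, were deposited in a table for each experiment. Groups came from the sample titles. Starting from these, filterByExpr dropped low genes (minimum count 10), libraries were scaled by TMM (edgeR 4.0.16), and voomWithQualityWeights, lmFit and eBayes (limma 3.58.1, R 4.3.3) were run over all genes, with Benjamini-Hochberg adjustment and the thresholds of the study (0.05 and 0.5). Log2 CPM includes a prior count of 2, which pulls low levels towards each other. Exon lengths and positions are from gencode M39, which held 78168 of 78239 genes. The members and lists were chosen with earlier results of these data known. Named are Stc1, Stc2, Hif1a, Pappa, Pappa2, Igfbp4, Igfbp5, Stim1, every listed gene called, the highest gene of each list and the 5 nearest genes. Others were named after their values were seen. Same-numbered cell libraries had r = 0.238, 0.227, 0.259 and 0.269 for numbers 1 to 4 across genes. The highest r with a library of another number was 0.287, 0.246, 0.249 and 0.250. These values do not show that cell libraries pair by number, and the block by number was run only as an alternative. Same-numbered retinas had r = -0.148 to 0.138. The scripts were tested on simulated data. Alternatives were edgeR, DESeq2 1.42.0, voom without weights, RLE size factors, other filters, coding in place of exon length, the block, retinas with Xist counts, a γ-crystallin covariate, a covariate for cell replicates 1 and 2 against 3 and 4, and leaving out each library.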

Additional observations from a re-analysis of the deposited data

Results flagged for a closer look

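Among 203 groups of libraries over 55 named genes, 11 had 1 library far from the rest of its group by Dixon's criterion, which chance gives in about 1 of 20 groups. None of these was a group of Stc1 or Stc2. In nsHif1a retina 4, Atp2a3 was at 19.4 CPM (next 5.61), Ppp1r15a at 30.9 (next 25.3) and Txnrd1 at 56.7 (next 48.8), each the highest of its group, and this retina also had the largest γ-crystallin share. In eGFP retina 3, Igfbp4 at 28.4 CPM (next 32.6) and Igfbp7 at 162 CPM (next 214) were the lowest. Ddit3 was highest in eGFP retina 1 with 28.4 CPM (next 24.3) and Egln3 in eGFP retina 2 with 11.95 CPM (next 8.04). Atp7b was lowest in nsHif1a retina 3 with 14.8 CPM (next 17.3). In cells, Slc2a1 was highest in eGFP library 4 with 127 CPM (next 119), Pdk1 in eGFP library 2 with 12.6 CPM (next 9.31), and Nos2 was lowest in nsHif1a library 4 with 6.22 CPM (next 9.30).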

How the results depend on the processing

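The log2FC of both stanniocalcins kept its sign in every alternative run. Leaving out 1 library gave 0.38 to 0.70 for Stc1 and 2.75 to 3.17 for Stc2 in the retina, and 5.93 to 6.60 for Stc1 and 0.92 to 0.98 for Stc2 in cells, where the highest Stc1 value came without eGFP library 2, the only one with a read of it. Stc1 in cells was 7.09 with edgeR and 7.37 with DESeq2. Over all genes, calls in the retina (203 higher, 172 lower) fell to 111 lower with voom without weights, 113 with genes of at least 1 count, 97 with the γ-crystallin covariate, 59 with the replicate block (141 higher), and 64 higher and 76 lower in retinas with Xist alone. Calls in cells (193 higher, 10 lower) were 332 and 34 with DESeq2 and 519 and 73 with the covariate for replicate pairs, and the replicate block gave 105 and 2. Those lower were 3 with edgeR, 6 without weights and 16 with genes of at least 1 count. Without 1 library the retina had 137 to 313 higher and 82 to 215 lower, and cells had 82 to 1201 higher and 2 to 682 lower, with 1201 and 677 without nsHif1a library 3 and 1194 and 682 without library 4. Listed genes called lower in cells then were 0 to 2 (Orai2 and Ank, without nsHif1a library 3 or 4). Retinal numbers do not pair the mice. In cells the block took the calls of Trpc1, Atf4 and Ankrd37 and added Hmox1. The cause of these shifts was not tested. With a prior count of 0.5, 4 of the 5 nearest genes were shared in each case. Depth limits Stc1 in eGFP cells, where 3 counts are 0.176 to 0.225 CPM.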
